A study of Mus musculus with 75 samples.

Results

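A set of 9 genes of the complement system, out of the 32245 genes in the deposited count table, were followed through 75 whole-kidney RNA libraries from mice. They were chosen by symbol. C3 and C4b are complement components, Cfb is the protease subunit of the alternative pathway convertase, Cfi, Serping1, Cd55, and Cd46 are regulators, and C3ar1 and C5ar1 are receptors. All 9 symbols were found in the table. Bulk RNA-Seq was made 3 days after unilateral ureter obstruction (UUO), in which the ureter of a single kidney is ligated, and the contralateral (CL) kidney served as the comparison. The 12 groups fall into 3 arms. In the ABTAA arm, C57BL6/J or WT mice received ABTAA, an antibody that binds ANGPT2 and activates the endothelial receptor TIE2 (7 CL and 7 UUO libraries), or human IgG Fc as control (8 and 8). In the Veptp arm, VeptpKO mice lost the phosphatase gene Veptp (Ptprb) from endothelial cells through tamoxifen-induced Cdh5-CreERT2 (6 CL and 8 UUO libraries), and VeptpWT controls were noninduced Veptp wt/lox mice that also carried Cdh5-CreERT2 (7 and 8). In the Pdgfb arm, PdgfbKO mice carried tamoxifen-induced Actb-CreERT2, which acts in the whole body, and PdgfbWT controls were Cre-negative Pdgfb wt/lox or lox/lox mice, with 4 libraries in each of the 4 groups. Mice were adult, of both sexes, and, in the knockout arms, on a mixed background. Some PdgfbWT CL libraries came from mice with a sham operation, and the labels do not mark which.

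Complement is a cascade of plasma proteins. Antibody and C1 start the classical pathway, which cleaves C4 and C2, while the alternative pathway uses factor B and properdin, and all routes meet at the cleavage of C3. Factor I inactivates C3b and C4b with the help of cofactors such as CD46, C1 inhibitor (Serping1) blocks the C1 proteases, and CD55 dissociates the convertases on cell surfaces. The fragments C3a and C5a act on C3AR1 and C5AR1, which are best known on myeloid cells. The liver makes most circulating complement, and kidney tubule cells are known to make C3 as well. In bulk tissue, fewer cells of a type and less RNA per cell cannot be told apart.

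In the GRCm38 (mm10) annotation of GENCODE, C3 (chromosome 17, 57203970 to 57228136), C4b (chromosome 17, 34728380 to 34743882), and Cfb (chromosome 17, 34856374 to 34862518) lie on the minus strand of 1 chromosome. Cfi lies on chromosome 3 (129835884 to 129875332, plus strand), Cd55 on chromosome 1 (130439027 to 130462744), Cd46 on chromosome 1 (195036826 to 195092249), Serping1 on chromosome 2 (84765387 to 84775444), C3ar1 on chromosome 6 (122847138 to 122856161), and C5ar1 on chromosome 7 (16246743 to 16259540), all on the minus strand apart from Cfi. C4b has a near copy, C4a, and 34.6% of the 50-base stretches of C4b transcripts also occur in C4a, so counts of C4b are uncertain where the counting could split such reads. For Cd55 and its copy Cd55b the share was 8.00%.

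The RefSeq promoter table (GRCm38.p6) held 5 of the 9 genes, C3, C3ar1, C5ar1, Cd46, and Cd55. The 250 bases before the start are shown for C3, the gene that changed most, and for Cd55, which was called lower after UUO in IgG and PdgfbWT mice. C3 lies at chr17:57228137-57228386 and Cd55 at chr1:130462745-130462994, both on the minus strand, and capitals mark a match to the C/EBP motif TTGCNNAA.
C3: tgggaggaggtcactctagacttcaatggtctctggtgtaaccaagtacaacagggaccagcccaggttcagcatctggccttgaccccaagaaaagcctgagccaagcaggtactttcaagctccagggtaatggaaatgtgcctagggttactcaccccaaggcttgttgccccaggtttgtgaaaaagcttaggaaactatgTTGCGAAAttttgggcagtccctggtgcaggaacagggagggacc
Cd55: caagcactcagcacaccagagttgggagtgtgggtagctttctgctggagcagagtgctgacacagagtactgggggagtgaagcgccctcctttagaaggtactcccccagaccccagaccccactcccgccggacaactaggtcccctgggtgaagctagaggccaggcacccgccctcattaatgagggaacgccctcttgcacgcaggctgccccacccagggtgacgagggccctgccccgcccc
Both strands were searched for TTGCNNAA (C/EBP), TTCNNNGAA (STAT), and, by name, the interferon-stimulated response element and the NF-kB consensus. C3 held 1 match, the C/EBP motif 45 to 38 bases before the start, and the other 4 promoters held none. Of 32851 promoters of this length, 9.56% held the C/EBP motif, 7.02% the STAT motif, 2.98% the interferon-stimulated response element, and 7.25% the NF-kB consensus. A match describes letters and was not tested as a site.

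Total counts per library ranged from 172827 to 2341800 (median 757897), and levels are given as CPM (counts scaled to a common library size) with TMM factors within each arm. Differences are log2 fold changes ± SE from edgeR's quasi-likelihood test, with p-values adjusted over all genes tested in the arm (9579, 11916, and 10923 in the ABTAA, Veptp, and Pdgfb arms) and a threshold of 0.05. The filter on low counts left 6, 7, and 8 of the 9 genes in the same order, and C5ar1 passed in no arm. Proximal tubule markers were detected in each of the 12 groups. Ptprb did not pass the test between VeptpKO and VeptpWT, though its medians lay in the direction of the label in both kidneys. It was 12.9 to 67.1 CPM (median 28.5) against 26.6 to 94.9 CPM (median 42.5) in UUO kidneys. In CL kidneys Ptprb was 27.3 to 45.8 CPM (median 34.2) against 28.9 to 85.2 CPM (median 62.4). Pdgfb was not lower in the CL libraries labelled PdgfbKO (16.9 to 25.4 CPM) than in PdgfbWT (4.52 to 20.3 CPM). In UUO kidneys Pdgfb was 34.0 to 41.4 CPM in libraries labelled PdgfbKO and 44.1 to 58.9 CPM in PdgfbWT, with no overlap, in the direction of the label, and the difference of -0.47 ± 0.21 did not pass (adjusted p = 0.12, edgeR). PdgfbKO is therefore used below as a label. Of the 75 libraries, 24 held at least 10 counts of both Xist and Y-linked genes, among them all 4 PdgfbKO UUO libraries. The 8 VeptpWT UUO libraries are more than the VeptpWT mice the study counts, so it is not known whether each is a separate mouse. In the Veptp arm, 16 library names carry the numbers 1 to 8 in both kidneys, and 4 of these numbers carry VeptpKO in one kidney and VeptpWT in the other. If a number stands for a mouse, the genotype labels of these 4 conflict, which would affect the comparison of VeptpKO with VeptpWT. Whether it does was not tested. The VeptpKO CL replicate 2 library stood apart, with Havcr1, a marker of tubule injury, at 247 CPM against 4.66 to 15.6 CPM in the other 5.

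C3 rose after UUO in all 6 genotypes or treatments and was the gene of the 9 with the largest change. In IgG mice C3 was 19.8 to 90.4 CPM in CL kidneys (median 25.4, n = 8) and 1093 to 2074 CPM in UUO kidneys (median 1824, n = 8), and the groups did not overlap. The log2 fold change was 5.44 ± 0.36 (adjusted p = 4.4e-14, edgeR). In ABTAA mice C3 rose from 29.1 to 177 CPM (median 46.9, n = 7) to 833 to 2246 CPM (median 1099, n = 7), by 4.50 ± 0.36 (adjusted p = 1.1e-11, edgeR). In VeptpWT mice it rose from 14.7 to 54.7 CPM (median 30.7, n = 7) to 928 to 2158 CPM (median 1250, n = 8), by 5.43 ± 0.63 (adjusted p = 6.2e-07, edgeR). The CL and UUO libraries of these groups were fully separated.

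C3 in VeptpKO CL kidneys was 13.8 to 623 CPM (median 39.8, n = 6), and the highest value was that of replicate 2, above the lowest UUO library. The VeptpKO UUO libraries held 483 to 1468 CPM (median 1025, n = 8). The rise was 3.07 ± 0.59 (adjusted p = 0.0012, edgeR). This call was lost without the 8 libraries whose numbers carry both genotypes, with values given below. Without replicate 2 the VeptpKO CL libraries held 13.8 to 50.4 CPM of C3 and the rise was 4.99 ± 0.38 (adjusted p = 6.1e-10, edgeR). Replicate 2 carries a name without a low line, and within such names the C3 change was 1.53 ± 0.58 and did not pass (2 CL and 4 UUO libraries, adjusted p = 0.67, edgeR), against 5.24 ± 0.30 within the names with it (adjusted p = 2.3e-10). In PdgfbWT mice C3 was 30.5, 148, 63.1, and 109 CPM in CL kidneys and 1175, 1384, 1253, and 1722 CPM in UUO kidneys, a rise of 3.99 ± 0.28 (adjusted p = 8.7e-11, edgeR). In libraries labelled PdgfbKO it was 65.2, 56.1, 69.3, and 93.5 CPM in CL and 595, 577, 622, and 769 CPM in UUO kidneys, a rise of 3.14 ± 0.28 (adjusted p = 1.2e-07, edgeR). Each UUO library of this arm was above each CL library.

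**Figure D1:**
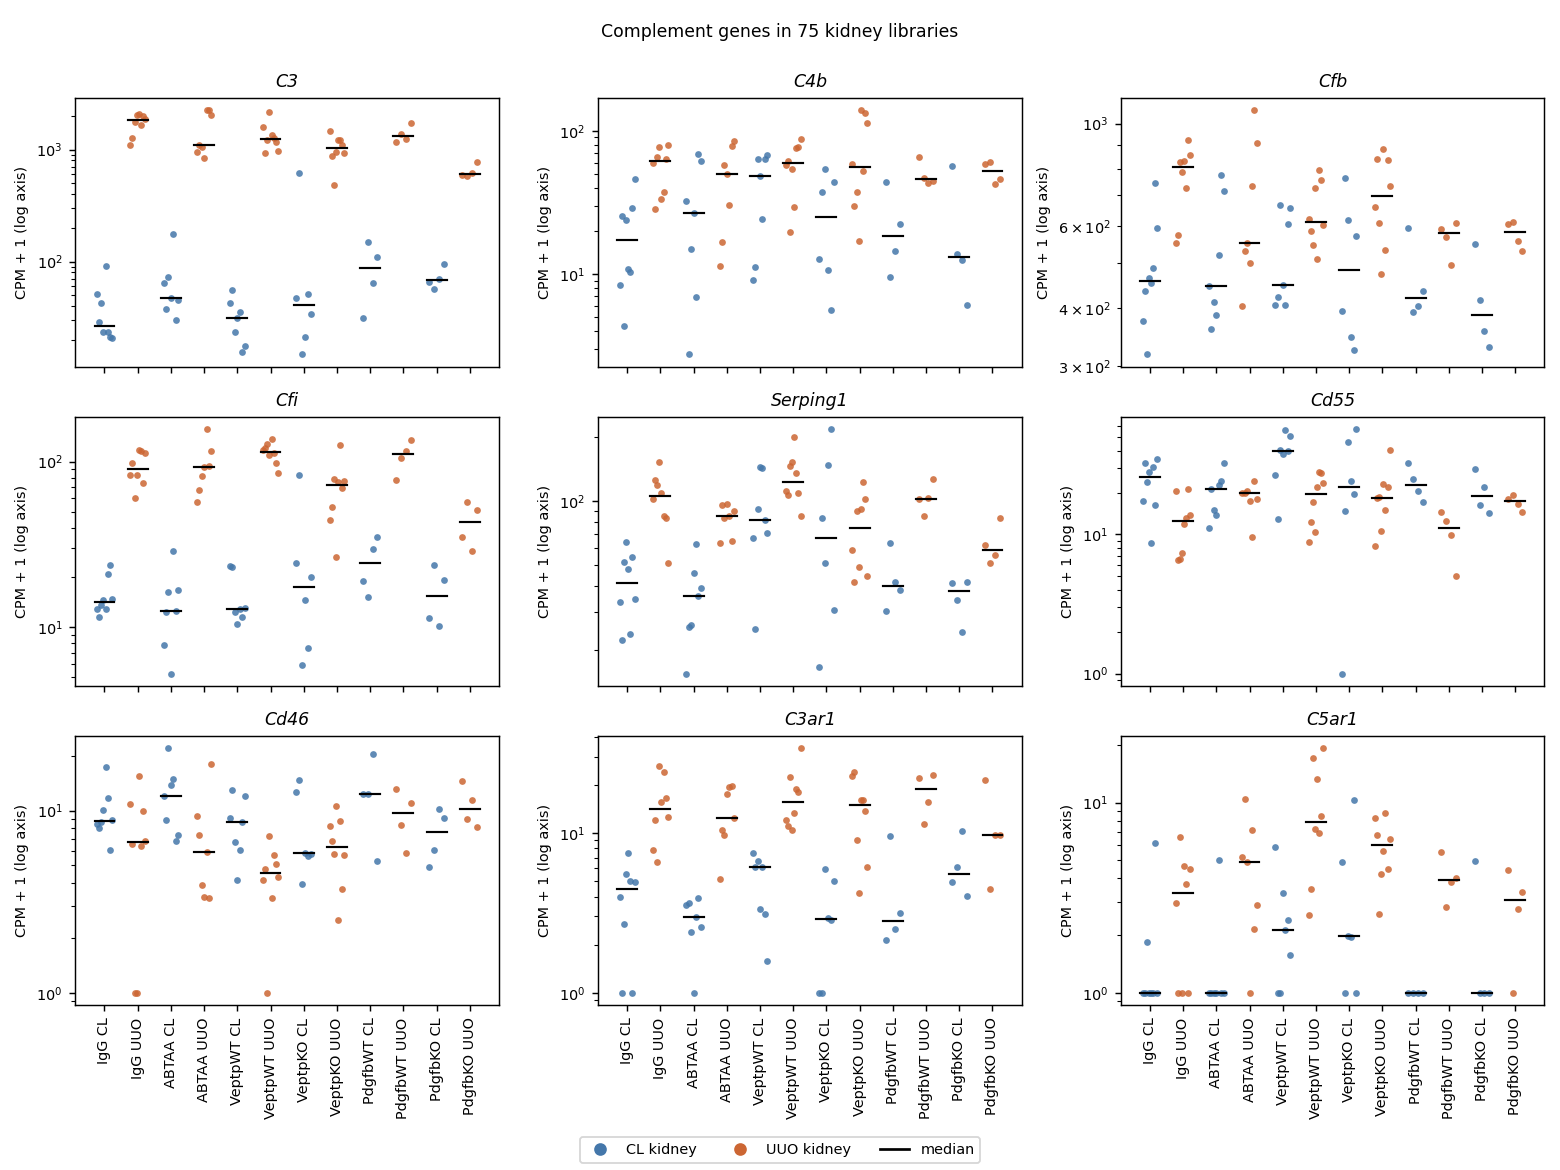
CPM + 1 on a log axis for the 9 genes in each of 75 libraries, by group, with blue points for CL kidneys, orange points for UUO kidneys, and a black line at the group median. C3 was 13.8 to 623 CPM over the 36 CL libraries and 483 to 2246 CPM over the 39 UUO libraries, with 1 high CL library in VeptpKO.

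Cfi, the plasma protease that cuts C3b and C4b, also rose in all 6, though its VeptpKO and PdgfbKO calls were lost in other settings given below. In IgG mice it was 10.6 to 22.9 CPM in CL (median 13.2) and 59.0 to 116 CPM in UUO kidneys (median 89.6), with no overlap and a log2 fold change of 2.65 ± 0.24 (adjusted p = 2.2e-10, edgeR). In ABTAA mice Cfi was 4.26 to 27.8 CPM (median 11.6) and 56.4 to 156 CPM (median 91.6), a rise of 2.87 ± 0.25 (adjusted p = 1.2e-10, edgeR). VeptpWT mice held 9.43 to 22.6 CPM of Cfi (median 11.9) and 84.7 to 136 CPM (median 114), a rise of 2.99 ± 0.38 (adjusted p = 2.5e-06, edgeR). These pairs of groups did not overlap. VeptpKO mice held 4.94 to 82.5 CPM (median 16.4) and 25.6 to 126 CPM (median 71.4), which overlapped, and Cfi rose by 1.75 ± 0.40 (adjusted p = 0.0056, edgeR). Here too replicate 2 held the highest CL value, and without it the rise of Cfi was 2.45 ± 0.33 (adjusted p = 1.4e-05, edgeR). Within the names without a low line the VeptpKO change of Cfi was 0.04 ± 0.41 (adjusted p = 0.99). In PdgfbWT mice Cfi went from 18.1, 14.2, 28.6, and 34.2 CPM to 76.1, 104, 115, and 134 CPM, by 2.15 ± 0.25 (adjusted p = 2.3e-07, edgeR). In libraries labelled PdgfbKO it went from 10.4, 22.9, 9.24, and 18.3 CPM to 34.0, 56.0, 27.9, and 50.2 CPM, by 1.5 ± 0.32 (adjusted p = 0.0053, edgeR).

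Serping1, which encodes C1 inhibitor, rose in 4 of the 6. In IgG mice it was 21.2 to 63.6 CPM (median 40.2) in CL and 50.1 to 152 CPM (median 105) in UUO kidneys, which overlapped, and the log2 fold change was 1.31 ± 0.23 (adjusted p = 3.1e-05, edgeR). In ABTAA mice Serping1 was 14.4 to 61.6 CPM (median 34.9) and 62.7 to 96.3 CPM (median 84.7), with no overlap and a change of 1.28 ± 0.25 (adjusted p = 0.00015, edgeR). In PdgfbWT mice it was 29.4, 62.5, 40.6, and 37.4 CPM and 101, 84.4, 102, and 126 CPM, a rise of 1.29 ± 0.20 (adjusted p = 1.5e-05, edgeR). In libraries labelled PdgfbKO Serping1 was 40.4, 33.1, 23.1, and 40.7 CPM and 61.2, 50.3, 54.8, and 82.0 CPM, a rise of 0.81 ± 0.23 (adjusted p = 0.035, edgeR). This last call was lost without PdgfbKO CL replicate 2, 3, or 4 or PdgfbKO UUO replicate 4 (adjusted p = 0.054 to 0.19). In the Veptp arm the CL values of Serping1 were widely spread, 23.9 to 145 CPM in VeptpWT (median 80.4) and 15.6 to 217 CPM in VeptpKO (median 66.4), against 83.9 to 200.5 CPM (median 123) and 40.5 to 122 CPM (median 73.7) in UUO kidneys. The changes were 0.55 ± 0.38 (adjusted p = 0.36, edgeR) and -0.27 ± 0.39 (adjusted p = 0.79, edgeR).

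C3ar1, the receptor of C3a, was low in CL kidneys and higher in UUO kidneys. Over the 36 CL libraries it held 0 to 9 counts and was at 0 in 5, whereas each of the 39 UUO libraries held it. VeptpWT mice had 0.579 to 6.45 CPM of C3ar1 in CL (median 5.11) and 9.35 to 32.8 CPM in UUO kidneys (median 14.7), with no overlap and a rise of 2.29 ± 0.42 (adjusted p = 0.00016, edgeR). VeptpKO mice had 0 to 4.94 CPM (median 1.91) and 3.19 to 23.1 CPM (median 13.9), a rise of 2.06 ± 0.49 (adjusted p = 0.0056, edgeR) with some overlap, which did not pass without the 8 libraries whose numbers carry both genotypes (2.32 ± 0.61, adjusted p = 0.064). PdgfbWT mice had 1.13, 8.53, 1.5, and 2.13 CPM and 21.1, 10.3, 14.6, and 22.0 CPM, a rise of 2.34 ± 0.48 (adjusted p = 0.00034, edgeR) that stayed at 2.29 ± 0.50 with Xist as a covariate (adjusted p = 0.00044). With the class of sex-linked transcripts as a covariate and the libraries with both kinds left out, 2 of 4 in each kidney, C3ar1 gave 1.37 ± 0.65 and did not pass (adjusted p = 0.14). Libraries labelled PdgfbKO had 3.91, 5.10, 9.24, and 3.05 CPM and 20.4, 3.43, 8.71, and 8.76 CPM, which overlapped, and the change of 0.84 ± 0.57 did not pass (adjusted p = 0.44, edgeR). In the ABTAA arm C3ar1 did not pass the filter, and the levels were 0 to 6.54 CPM in IgG CL, 5.62 to 25.4 CPM in IgG UUO, 0 to 2.91 CPM in ABTAA CL, and 4.18 to 18.6 CPM in ABTAA UUO libraries. With no filter C3ar1 rose by 1.95 ± 0.41 in IgG and by 2.51 ± 0.44 in ABTAA mice (adjusted p = 5.8e-05 and 1.0e-06, edgeR). C5ar1, the receptor of C5a, was at 0 counts in 23 of 36 CL libraries and in 5 of 39 UUO libraries, and no library held more than 44 counts. In PdgfbWT mice C5ar1 had no count in the 4 CL libraries, which allows 0.854 CPM without scaling (3 counts over the group). The 4 UUO libraries held 20 counts, 4.11-fold above that limit. This ratio leaves out the counting error of the 20 counts and the spread between libraries. With no filter C5ar1 rose in ABTAA (2.69 ± 0.83), VeptpWT (2.52 ± 0.55), and PdgfbWT mice (adjusted p = 0.013, 0.00094, and 0.0049, edgeR). The C5ar1 changes of 1.64 ± 0.86 in IgG, 0.82 ± 0.59 in VeptpKO, and 0.49 ± 1.06 in PdgfbKO libraries did not pass (adjusted p = 0.23, 0.64, and 0.97).

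Markers of several cell types also changed after UUO. The summed level of 10 macrophage markers was 117 to 554 CPM in CL and 294 to 1144 CPM in UUO kidneys, and of those tested 9 of 9 rose in IgG, 8 of 9 in ABTAA, 9 of 10 in VeptpWT, 6 of 10 in VeptpKO, 10 of 10 in PdgfbWT, and 4 of 10 in PdgfbKO libraries. The 7 fibroblast markers summed to 95.5 to 747 CPM and 323 to 1886 CPM. The 6 injured tubule markers went from 1008 to 15990 CPM to 5087 to 37770 CPM in sum, with all 6 called higher in 5 genotypes or treatments and 5 of 6 in VeptpKO, and the 6 proximal tubule markers from 4264 to 7893 CPM to 1311 to 4983 CPM. VeptpKO CL replicate 2 set the upper limits of the macrophage, fibroblast, and injured tubule sums in CL kidneys, and the other CL libraries held at most 353, 376, and 6393 CPM. The 7 liver markers summed to 54.1 to 773 CPM in CL and 275 to 1081 CPM in UUO kidneys. The part of any of these in the complement results was not tested.

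C4b and Cfb rose in fewer comparisons. C4b, a component of the classical and lectin pathways, was 3.38 to 45.5 CPM in IgG CL (median 16.3) and 27.7 to 79.3 CPM in IgG UUO libraries (median 60.7), a rise of 1.72 ± 0.50 (adjusted p = 0.0071, edgeR) with overlap. The call was lost on thinning all libraries to the depth of the shallowest (1.28 ± 0.54, adjusted p = 0.091) and within the names with a low line (1.36 ± 0.53, adjusted p = 0.056). In PdgfbWT mice C4b was 42.9, 8.53, 13.5, and 21.3 CPM in CL and 65.2, 46.1, 42.5, and 43.9 CPM in UUO kidneys, a rise of 1.13 ± 0.40 (adjusted p = 0.027, edgeR). That call was lost without any one of 4 libraries (PdgfbWT CL replicates 2, 3, and 4 and PdgfbWT UUO replicate 1; adjusted p = 0.068 to 0.096). In the other 4, the changes of C4b were 0.69 ± 0.47 (ABTAA), 0.54 ± 0.47 (VeptpWT), 1.48 ± 0.52 (VeptpKO), and 1.14 ± 0.44 (PdgfbKO), none called (adjusted p = 0.077 to 0.51, edgeR). In VeptpKO mice C4b passed without VeptpKO CL replicate 3 (1.85 ± 0.57, adjusted p = 0.048) or without VeptpKO UUO replicate 4 (1.62 ± 0.51, adjusted p = 0.041), and also with all 12 groups fitted together, with name form as a covariate, and within the names with a low line (1.49, 1.68, and 1.96, adjusted p = 0.040, 0.0035, and 0.0051). Cfb rose in IgG mice alone, from 317 to 743 CPM (median 458) to 551 to 923 CPM (median 805), by 0.65 ± 0.19 (adjusted p = 0.0079, edgeR). Cfb changes in the other 5 were 0.31 to 0.48, with adjusted p of 0.067 to 0.28 (edgeR). Without PdgfbWT CL replicate 1, Cfb passed in PdgfbWT (0.46 ± 0.15, adjusted p = 0.018) and in PdgfbKO libraries (0.48 ± 0.14, adjusted p = 0.034), and without PdgfbKO CL replicate 1 in the latter (0.66 ± 0.15, adjusted p = 0.011). In ABTAA mice the 3 numbered pairs of kidneys gave a Cfb rise of 0.45 ± 0.11 with the pairing as a block (adjusted p = 0.0026, edgeR) and 0.45 ± 0.19 without it (adjusted p = 0.11).

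C4b, and less so Cfb, differed between libraries that held Xist alone and libraries that held Y-linked transcripts alone, a comparison chosen after the data were seen. In CL kidneys C4b was 1.75 to 12.7 CPM in the 14 libraries with Xist (median 8.93) and 23.3 to 68.3 CPM in the 13 libraries with Y-linked transcripts (median 53.4), with no overlap. In UUO kidneys C4b was 10.4 to 60.7 CPM in 14 libraries with Xist (median 31.0) and 28.9 to 138 CPM in 10 with Y-linked transcripts (median 81.3). Within groups C4b was higher with Y-linked transcripts by 2.23 ± 0.26, 1.62 ± 0.29, and 2.60 ± 0.34 in the ABTAA, Veptp, and Pdgfb arms (adjusted p = 1.4e-06, 0.00081, and 3.6e-06, edgeR), where 4.42%, 12.6%, and 4.61% of all genes tested were called in either direction. Cfb was higher by 0.62 ± 0.14, 0.53 ± 0.13, and 0.61 ± 0.16 (adjusted p = 0.0058, 0.010, and 0.017, edgeR). Cd55 was higher by 1.14 ± 0.26 in the Veptp arm (adjusted p = 0.0056, edgeR) and by 0.46 ± 0.23 and 0.67 ± 0.35 in the ABTAA and Pdgfb arms (adjusted p = 0.31 and 0.30). C3 was lower by 1.05 on the log2 scale in the Pdgfb arm (-1.05 ± 0.30, adjusted p = 0.033, edgeR), where only 2 libraries held Y-linked transcripts alone, and did not pass in the other arms. These fits left out the libraries with both kinds of transcript, so no PdgfbKO UUO library entered them.

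**Figure D2:**
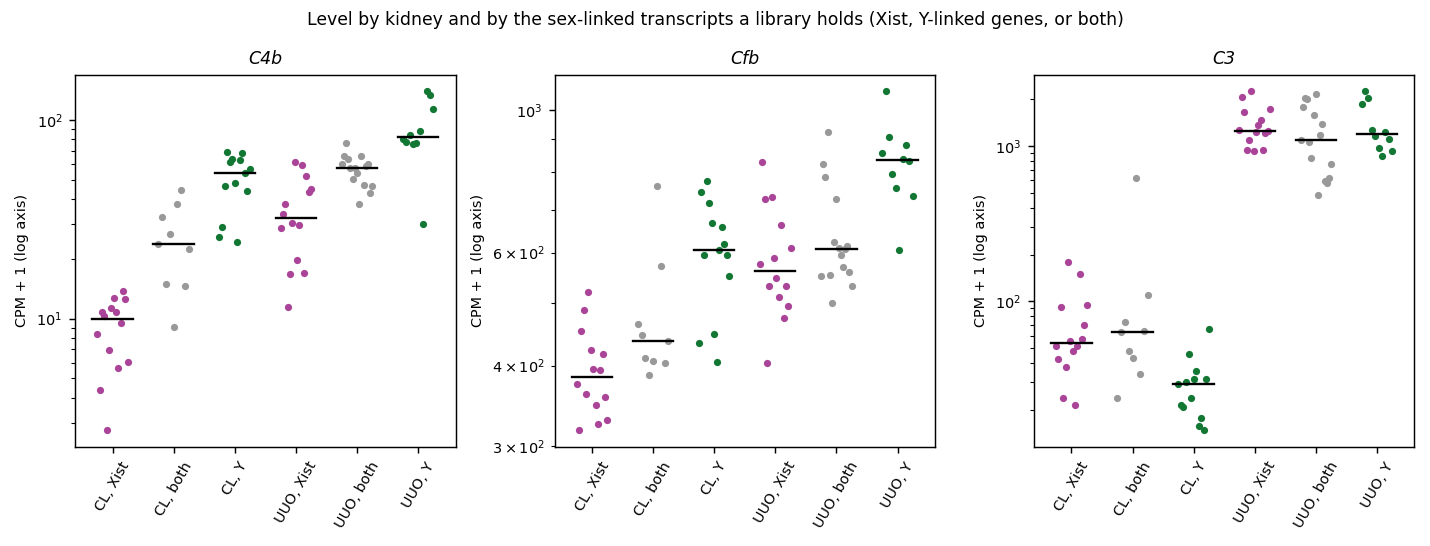
CPM + 1 (log axis) of C4b, Cfb, and C3 in libraries that hold at least 10 counts of Xist alone (purple), of Y-linked genes alone (green), or of both (grey), by kidney, with a black line at the median. In CL kidneys C4b did not overlap between Xist libraries (at most 12.7 CPM) and Y libraries (at least 23.3 CPM).

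The sex-linked transcripts also moved the UUO comparison of C4b. With the level of Xist as a covariate C4b rose after UUO by 2.00 ± 0.36 in IgG, 1.16 ± 0.37 in VeptpWT, 1.26 ± 0.39 in VeptpKO, 1.74 ± 0.25 in PdgfbWT, and 1.70 ± 0.28 in PdgfbKO libraries (adjusted p = 2.9e-05, 0.026, 0.029, 1.8e-06, and 0.00019, edgeR), and the change of 0.80 ± 0.33 in ABTAA mice did not pass (adjusted p = 0.074). With the class of library as the covariate, and the libraries with both kinds left out, C4b rose by 1.84 ± 0.37 in IgG, 1.71 ± 0.44 in VeptpKO, and 2.55 ± 0.40 in PdgfbWT mice (adjusted p = 0.00057, 0.014, and 1.3e-05, edgeR), while 0.94 ± 0.38 in VeptpWT and 0.82 ± 0.36 in ABTAA mice did not pass (adjusted p = 0.099 and 0.12). The covariate and the libraries left out were not separated. In libraries labelled PdgfbKO, C4b was 56.0, 12.7, 11.6, and 5.08 CPM in CL and 57.8, 59.4, 41.8, and 45.4 CPM in UUO kidneys, and the highest CL value was that of the single library with Y-linked transcripts alone (replicate 1). Without it the rise of C4b was 2.53 ± 0.43 (adjusted p = 0.00070, edgeR). C4a, the near copy, was 0 to 41.1 CPM in CL libraries with Y-linked transcripts and 0 to 4.45 CPM in those with Xist.

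Cd55, which dissociates convertases on cell membranes, fell in IgG and PdgfbWT mice. In IgG mice Cd55 was 7.63 to 33.6 CPM in CL (median 25.0) and 5.53 to 20.1 CPM in UUO kidneys (median 11.5), which overlapped, and the change was -0.77 ± 0.30 (adjusted p = 0.043, edgeR). That call was lost without any one of 11 libraries (adjusted p = 0.061 to 0.10 without IgG CL replicate 2, 3, 4, 6, or 8 or IgG UUO replicate 2, 3, 4, 5, 6, or 8). In PdgfbWT mice Cd55 was 31.6, 24.2, 19.5, and 16.0 CPM in CL and 13.4, 11.5, 8.89, and 3.99 CPM in UUO kidneys, with no overlap, and the change was -1.21 ± 0.30 (adjusted p = 0.0023, edgeR). In VeptpWT mice it was 12.0 to 55.6 CPM and 7.84 to 27.2 CPM, with a change of -1.01 ± 0.38 (adjusted p = 0.060, edgeR) that passed without VeptpKO CL replicate 1 or VeptpWT CL replicate 2 (adjusted p = 0.027 and 0.028). It also passed with edgeR's exact test, all 12 groups fitted together, the compared groups alone, and name form as a covariate (adjusted p = 0.010, 0.0079, 0.029, and 0.0043). With the class of sex-linked transcripts as a covariate and the libraries with both kinds left out the change of Cd55 was -0.51 ± 0.32 (adjusted p = 0.34, edgeR), and with Xist as a covariate and all libraries kept -0.67 ± 0.29 (adjusted p = 0.11). In ABTAA, VeptpKO, and PdgfbKO libraries the changes of Cd55 were -0.11 ± 0.29, -0.49 ± 0.40, and -0.30 ± 0.33, none called. Cd46, a membrane cofactor of factor I, held 0 to 19 counts per library and passed the filter only in the Pdgfb arm. There Cd46 changed by -0.44 ± 0.38 in PdgfbWT and 0.45 ± 0.48 in PdgfbKO libraries (adjusted p = 0.39 and 0.67, edgeR). With no filter the Cd46 changes were -0.49 ± 0.38 in IgG, -0.94 ± 0.38 in ABTAA, -1.08 ± 0.38 in VeptpWT, and -0.22 ± 0.43 in VeptpKO mice, none called (adjusted p = 0.50, 0.097, 0.059, and 0.91), and with all 12 groups fitted together the VeptpWT value passed (-1.08 ± 0.37, adjusted p = 0.021).

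Counted over the 9 genes, after UUO 5 were called higher and 1 lower in IgG mice, against 16.3% and 18.2% of all genes tested, and 3 were higher in ABTAA mice, against 12.6% (12.5% lower). In VeptpWT mice 3 were higher, against 10% of all genes (8.38% lower), and in VeptpKO mice 3 were higher, against 4.47% (3.47% lower). In PdgfbWT mice 5 were higher and 1 lower, against 17.9% and 19.4%, and in libraries labelled PdgfbKO 3 were higher, against 3.94% (2.42% lower). The medians of the log2 fold changes over the tested genes among the 9 were 1.51, 0.98, 0.55, 1.48, 1.21, and 0.82 in this order, and the medians of all genes lay between -0.01 and 0.04. Without TMM factors the median of all genes moved to 0.40 in PdgfbWT mice, 0.21 in IgG, and 0.08 to 0.13 in the other 4, and calls over all genes went from 1561 higher and 1740 lower to 2390 and 1123 in IgG, and from 1956 and 2119 to 4336 and 1166 in PdgfbWT mice. In ABTAA they went from 1210 and 1197 to 1559 and 825, in VeptpWT from 1195 and 999 to 1367 and 550, in VeptpKO from 533 and 414 to 607 and 244, and in PdgfbKO libraries from 430 and 264 to 560 and 156. The 9 genes kept their direction wherever they were called, but Cd55 in IgG mice no longer passed (-0.55 ± 0.31, adjusted p = 0.15), and Cfb passed in PdgfbWT (0.66 ± 0.16, adjusted p = 0.0013) and PdgfbKO libraries (0.55 ± 0.16, adjusted p = 0.036). Thinning also ended the calls of Cfi in VeptpKO and PdgfbKO, of Serping1 in ABTAA, PdgfbWT, and PdgfbKO, and of C4b in PdgfbWT libraries (adjusted p = 0.055 to 0.78). With all 12 groups in 1 fit, Cfi (adjusted p = 0.068) and Serping1 (0.54) in PdgfbKO, C4b in PdgfbWT (0.22), and Cd55 in IgG libraries (0.081) did not pass, and the Cfi rise in VeptpKO did not with the compared groups alone (0.060). With DESeq2, C4b in PdgfbWT (0.15) and Cd55 in IgG (0.086) did not pass.

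**Figure D3:**
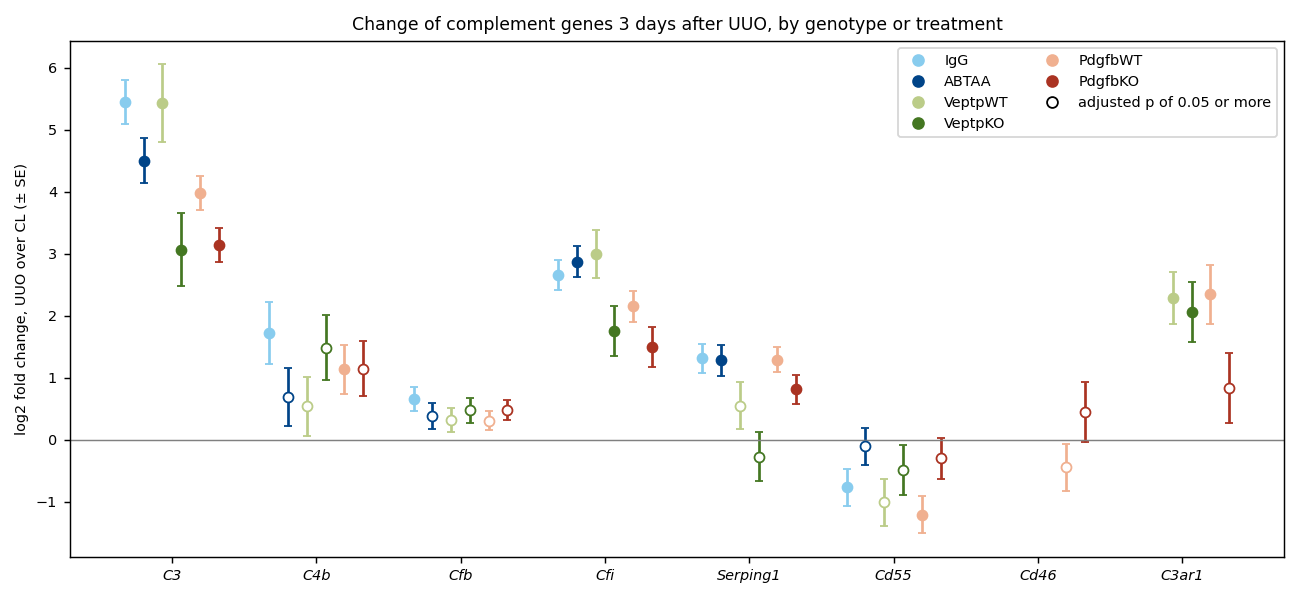
Log2 fold change (± SE) of UUO over CL libraries for the 8 genes that passed the filter in at least 1 arm, by genotype or treatment; filled points passed an adjusted p of 0.05 and missing points were not tested. C3 lies between 3.07 and 5.44 and Cfi between 1.5 and 2.99, all filled, while Cd55 lies between -1.21 and -0.11.

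ABTAA and IgG mice were compared to ask whether TIE2 activation changed complement expression. None of the 6 genes tested passed in UUO or CL kidneys, or in the difference between the responses, and no gene of the arm did (0% of 9579 higher and 0% lower in each). An unadjusted p under 0.05 was held by 340, 303, and 315 genes in these 3 comparisons, and DESeq2 called 0 in each. Each of these counts is below the share of 0.05 that chance alone would give. C3 was 0.20 lower on the log2 scale in ABTAA UUO libraries (-0.20 ± 0.29) and 0.74 ± 0.34 higher in ABTAA CL libraries, and its response to UUO differed by -0.94 ± 0.45 (adjusted p = 0.9995, edgeR). Without ABTAA CL replicate 5 these last values of C3 were 0.30 ± 0.31 and -0.49 ± 0.40. Library names come in 2 forms, with and without a low line, and C3 in ABTAA UUO libraries was 833 to 1099 CPM in 4 libraries named without it and 2045 to 2246 CPM in 3 named with it, whereas IgG UUO libraries held 1093 to 2036 and 1645 to 2074 CPM. Within the names without a low line C3 differed by -0.66 ± 0.21 between ABTAA and IgG in UUO kidneys (adjusted p = 0.83, edgeR), and within those with it by 0.21 ± 0.40 (adjusted p = 0.9998). The difference between these values, and the part of the name form in them, was not tested. Cfi (0.04 ± 0.21), Cfb (-0.18 ± 0.20), Serping1 (-0.29 ± 0.23), C4b (-0.21 ± 0.45), and Cd55 (0.44 ± 0.31) were within 1.5 SE of 0 in UUO kidneys.

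VeptpKO and VeptpWT mice addressed the same question through loss of a phosphatase of TIE2. None of the 7 genes tested passed in UUO kidneys, in CL kidneys, or between the responses (0% of 11916 genes higher and 0% lower in each). An unadjusted p under 0.05 was held by 426, 229, and 324 genes, each below the share of 0.05 that chance alone would give, and DESeq2 called 1, 0, and 0. In UUO kidneys Cfi differed by -0.68 ± 0.33 and Serping1 by -0.77 ± 0.36 (unadjusted p = 0.046 and 0.044, adjusted p = 0.9999, edgeR), and C3 by -0.37 ± 0.48. In CL kidneys C3 differed by 2.00 ± 0.58 and its response to UUO by -2.37 ± 0.75. Without VeptpKO CL replicate 2 these values of C3 were 0.07 ± 0.33 and -0.44 ± 0.42. Without the 8 libraries whose numbers carry both genotypes, C3 rose after UUO by 2.64 ± 0.73 and Cfi by 1.38 ± 0.52 in VeptpKO mice, and neither was called (adjusted p = 0.084 and 0.24, edgeR), while VeptpWT kept rises of 5.17 ± 0.76 and 2.82 ± 0.48 (adjusted p = 0.00033 and 0.00092).

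PdgfbKO and PdgfbWT were compared to ask how loss of the growth factor PDGFB bears on the response to UUO. In UUO kidneys 3 of the 8 tested genes were lower in libraries labelled PdgfbKO, where 6.58% of all genes were called lower and 12% higher. These were Cfi, C3, and Serping1, and for each the 4 PdgfbKO UUO libraries lay below the 4 PdgfbWT UUO libraries. Cfi was 27.9 to 56.0 CPM against 76.1 to 134 CPM, a log2 difference of -1.31 ± 0.23 (adjusted p = 0.00024, edgeR). C3 was 577 to 769 CPM against 1175 to 1722 CPM, a difference of -1.10 ± 0.24 (adjusted p = 0.0017, edgeR). Serping1 was 50.3 to 82.0 CPM against 84.4 to 126 CPM, a difference of -0.71 ± 0.19 (adjusted p = 0.011, edgeR), and this call was lost without PdgfbKO UUO replicate 2 or 3 (adjusted p = 0.058 and 0.051) and on thinning (0.22). C3ar1 differed by -0.94 ± 0.38 (adjusted p = 0.086, edgeR) and passed without PdgfbKO UUO replicate 1 (-1.17 ± 0.39, adjusted p = 0.039), without TMM factors (-1.20 ± 0.36, adjusted p = 0.017), and with no filter (-0.96 ± 0.33, adjusted p = 0.046). Cd55 was higher in each PdgfbKO UUO library than in any PdgfbWT UUO library (13.5 to 18.3 against 3.99 to 13.4 CPM), with a difference of 0.68 ± 0.32 that did not pass (adjusted p = 0.14, edgeR). Without TMM factors the median of all genes in this comparison was -0.28, with 667 genes called higher and 2378 lower in place of 1315 and 719. C4b (0.01 ± 0.36), Cfb (0.03 ± 0.15), and Cd46 (0.15 ± 0.39) were within 1 SE of 0. With Xist as a covariate C4b differed by -0.35 ± 0.21 (adjusted p = 0.26, edgeR), and on thinning by -0.61 ± 0.49 (adjusted p = 0.53).

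Other libraries and markers bear on the Pdgfb comparison. With all 12 groups in 1 fit, Cfi kept its call (-1.34 ± 0.37, adjusted p = 0.031), while C3 (-1.11 ± 0.54, adjusted p = 0.30) and Serping1 (-0.73 ± 0.40, adjusted p = 0.38) did not pass. All 4 PdgfbKO UUO libraries held both Xist and Y-linked transcripts, as did 2 of 4 PdgfbWT UUO libraries. The latter 2 held 1175 and 1384 CPM of C3 and 76.1 and 104 CPM of Cfi, above all 4 PdgfbKO UUO libraries. Macrophage markers were lower in PdgfbKO UUO libraries (442 to 512 CPM in sum against 690 to 1034 CPM, 7 of 10 called), as were fibroblast markers (388 to 949 CPM in sum against 1070 to 1499 CPM, 5 of 6 called) and endothelial markers (92.3 to 156 CPM in sum against 149 to 207 CPM, 2 of 5 called), 1 of 6 injured tubule markers was called lower, and 5 of 6 proximal tubule markers were called higher (2544 to 4637 CPM in sum against 1311 to 2105 CPM). Of 5 liver markers tested, 1 was called higher and 2 lower. The part of these markers in the result was not tested. In CL kidneys none of the 8 genes passed (0% of 10923 genes higher and 0% lower, 0 by DESeq2). An unadjusted p under 0.05 was held by 378 genes, below the share of 0.05 that chance alone would give. The response to UUO differed between the genotypes for none of the 8 genes, where 6.66% of all genes were called higher and 1.9% lower, and C3 gave -0.85 ± 0.38 (adjusted p = 0.18, edgeR), which passed without PdgfbWT CL replicate 2 (-1.20 ± 0.34, adjusted p = 0.031). Without TMM factors, and with no filter, 1 call was made in each setting.

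**Figure D4:**
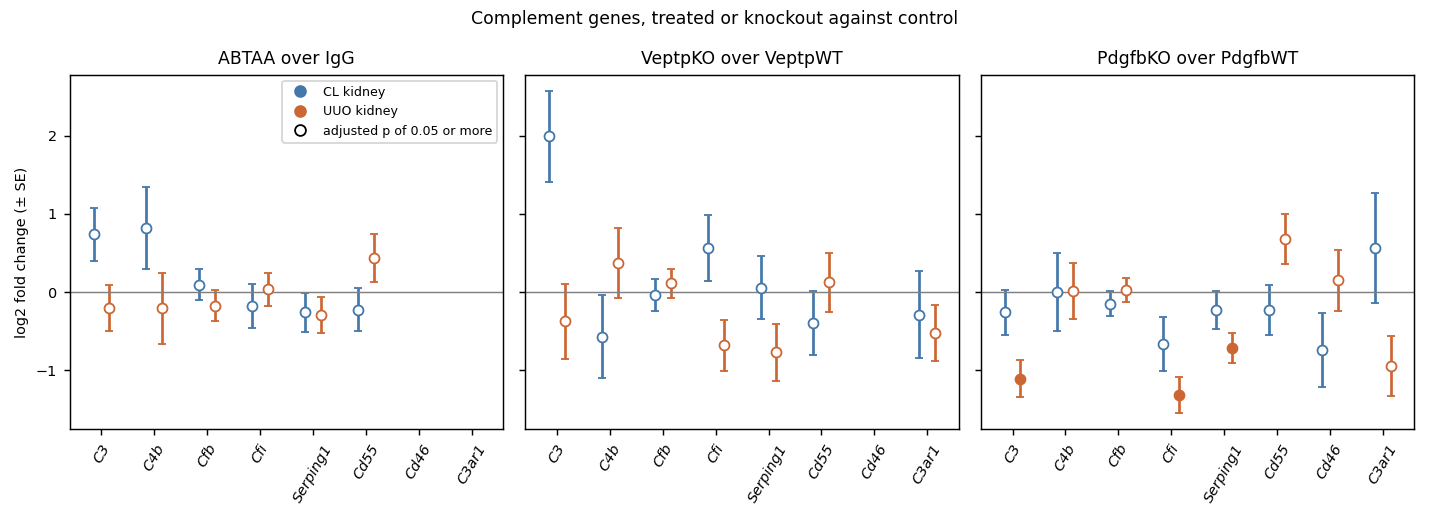
Log2 difference (± SE) between treated or knockout and control libraries in CL (blue) and UUO (orange) kidneys of the 3 arms, with filled points for an adjusted p under 0.05; genes without a point were not tested. The filled points are C3, Cfi, and Serping1 in UUO kidneys of the Pdgfb arm, between -1.31 and -0.71, and the C3 point at 2.00 in VeptpKO CL kidneys is 0.07 without replicate 2.

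The other genes of the pathway were taken from a list of 51, the 9 included, of which 24, 31, and 30 were tested in the ABTAA, Veptp, and Pdgfb arms. Of these, 18 were called higher and 4 lower after UUO in IgG mice, 15 and 3 in ABTAA, 15 and 2 in VeptpWT, 13 and 1 in VeptpKO, 19 and 5 in PdgfbWT, and 12 and 0 in PdgfbKO libraries. Over all genes tested the shares called higher and lower were, in this order, 16.3% and 18.2%, 12.6% and 12.5%, 10% and 8.38%, 4.47% and 3.47%, 17.9% and 19.4%, and 3.94% and 2.42%. The C1q chains C1qa, C1qb, and C1qc, the recognition unit of the classical pathway, were called higher in all 6, between 1.31 and 2.68 on the log2 scale. The C1 protease C1ra rose in all 6 (1.45 to 2.29), C1s1 in 5, and C2, the classical convertase protease, in all 6 (0.84 to 1.38). Cfp (properdin, which stabilizes the alternative convertase) rose in all 6 by 2.06 to 3.52, and Clu (clusterin, an inhibitor of the terminal complex) by 1.34 to 2.99. In contrast, C8a and C8g, chains of the terminal component C8, fell in 5 and in 4 (C8a -3.05 to -1.62), and Cd59a, the membrane inhibitor of the terminal complex, fell in IgG, ABTAA, and PdgfbWT mice (-1.08 to -0.70). Cfd (factor D, which fat tissue also makes) had changes of 3.15 in IgG and -3.98 in PdgfbWT mice, both called.

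In the Pdgfb arm 10 of the 30 list genes were called lower and 2 higher in PdgfbKO UUO libraries, against 6.58% and 12% of all genes tested, a balance that turned to 667 higher and 2378 lower genes without TMM factors. Beside Cfi, C3, and Serping1, the lower ones were C1qb (-0.75), C1ra (-1.10), C1s1 (-0.88), C2 (-0.55), Colec12 (-1.01), Itgam (-1.39), and Cd93 (-1.02). The higher ones were C8a (1.96) and C8g (1.08). The median over the list was -0.50 against -0.02 over all genes tested. In the ABTAA and Veptp arms no list gene passed between treated and control mice.

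**Figure D5:**
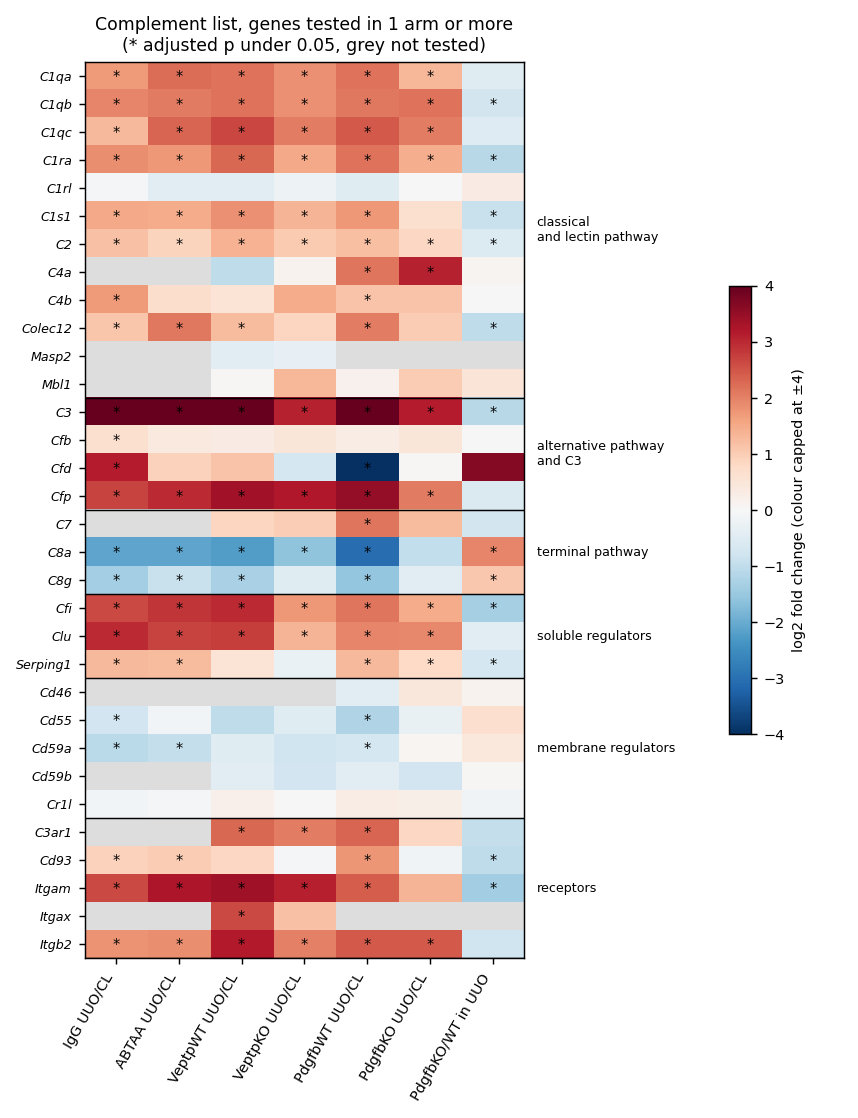
Log2 fold changes of 32 genes of the complement list tested in at least 1 arm, by role (rows) and comparison (columns), with asterisks for an adjusted p under 0.05, grey for not tested, and colour capped at 4. Rows of the C1q chains, C3, Cfp, Cfi, and Clu are red with asterisks in all 6 UUO against CL columns, and those of C8a and C8g are blue there.

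Over the means of the 12 groups (log2(CPM + 1)), the genes with the pattern most like C3 among those tested in all arms were Lcn2 (Pearson r = 0.997), Havcr1 (0.991), and Tnfrsf12a (0.991), a description over points that share libraries. For Cfi they were Lcp1 (0.995), Pmaip1 (0.988), and Fn1 (0.988), for Serping1 Mxra8 (0.972), Sept2 (0.965), and Serpine2 (0.961), and for C3ar1 BE692007 (0.980), 1700017B05Rik (0.976), and Tuba1a (0.973). For C4b they were Trim47 (0.980), Cpe (0.976), and Fes (0.971), for Cfb Timd2 (0.972), Gm12185 (0.965), and Stbd1 (0.944), and for Cd55 Cisd2 (0.904), Cpq (0.888), and Slc22a28 (0.887). Cd46 was nearest to Ccny (0.897), Wdr61 (0.888), and Kat2b (0.876), and C5ar1 to Tapbp (0.962), Ptpn23 (0.958), and Net1 (0.955).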

How the data were processed

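Whole-kidney RNA was sequenced in 75 libraries, and the labels do not tie each to a separate mouse, so p-values measure the spread between libraries, which may in part be technical. To make the deposited counts, the authors merged the reads of 4 plate wells per sample, mapped them to mm10 with STAR 2.7.3a, removed duplicates by molecular identifier with UMI-tools 1.1.4, and counted genes with featureCounts of Subread 1.4.6-p5 (tools and build per the labels); the annotation is not given in the sources used here. Values are raw, unscaled counts. Columns were matched to samples by title.

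Each arm was fitted over its 4 groups in R 4.3.3 with edgeR 4.0.16 (TMM, filterByExpr by group, glmQLFit with its current, non-legacy method, glmQLFTest), with Benjamini-Hochberg adjustment over the genes tested. SE is the log2 fold change divided by the square root of F. The steps were tested on simulated data. Tables and plots were made in Python 3.11.15. Counting error alone limits low genes, since 1 CPM stood for 0.173 to 2.34 counts.

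The 9 genes, the complement list, and the markers were chosen with earlier results of these data known. A further gene of the pathway is not reported here and is left out of the list's counts. The rule for naming other genes was the complement list, the deleted genes, and the 3 genes most like each member. Alternatives were no TMM factors, DESeq2 1.42.0, other filters, edgeR's exact test, other sets of groups, thinning, Xist or library name form as covariates, and each library left out; a fit by class of sex-linked transcripts and one without 8 Veptp libraries were added after seeing the data. In ABTAA mice 3 CL and 3 UUO libraries share numbers. Their deviations from group means correlated at 0.16 to 0.387 within a number and at -0.26 to 0.10 between numbers. Each value within a number was above 0.1, so these libraries were taken as pairs. Deviations were taken from the mean of the same 3 libraries, which by itself lowers the values between numbers. Those values are therefore no independent support for the pairs. The labels do not otherwise pair the kidneys of a mouse.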

Additional observations from a re-analysis of the deposited data

Results flagged for a closer look

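Of 107 sets of 1 gene in 1 group, 9 held a library far from the others on the log2(CPM + 1) scale. The nominal rate of the rule is about 1 in 20 sets, and its rate for low counts was not tested. C3 in VeptpKO CL replicate 2 was 623 CPM against 50.4 CPM in the nearest library of the group, and this library also held the highest Cfi (82.5 CPM) and Havcr1 (247 CPM) of the group. C3 in VeptpKO UUO replicate 3 was 483 CPM against 867 CPM in the nearest. Cd55 was 8.59 CPM in ABTAA UUO replicate 5 (nearest 16.4 CPM) and 0 CPM in VeptpKO CL replicate 1 (nearest 13.7 CPM). The other 5 rest on 0 to 3 counts: Cd46 at 0 CPM in VeptpWT UUO replicate 3, C3ar1 at 0 CPM in ABTAA CL replicate 4, and C5ar1 at 5.09 CPM in IgG CL replicate 7, 3.97 CPM in ABTAA CL replicate 5, and 3.91 CPM in PdgfbKO CL replicate 1.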

How the results depend on the processing

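Calls for the 9 genes were counted over the UUO against CL comparisons of an arm (9 in the ABTAA, 6 in the Veptp, and 9 in the Pdgfb arm) or within 1 group. In ABTAA mice the 3 calls became 5 with no filter and 5 with DESeq2. In the Veptp arm the 6 became 3 on thinning to the shallowest library, 3 within names without a low line, 10 within names with it, and 3 without the 8 libraries whose numbers carry both genotypes. For VeptpKO alone the 3 became 1 on thinning, 1 with the compared groups alone, 0 within names without a low line, 5 within names with it, 5 with class of sex-linked transcripts as a covariate and libraries with both kinds left out, and 0 without the 8 libraries. For VeptpWT alone the 3 became 5 with Xist as a covariate, 5 within names with a low line, and 5 with all 12 groups in 1 fit. In the Pdgfb arm the 9 became 3 on thinning, the 6 of PdgfbWT became 2 on thinning, and the 3 of PdgfbKO became 5 with no filter, 1 on thinning, 5 with Xist, and 1 with all 12 groups. The 3 calls between PdgfbKO and PdgfbWT in UUO kidneys became 1 with all 12 groups, and the 0 calls between the responses became 1 without TMM factors and 1 with no filter. On thinning, C3ar1 and Cd55 did not pass the filter in any arm, so their calls were not tested there. The cause of these changes was not tested, beyond the fewer counts on thinning and the fewer libraries in the subsets.

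Leaving out each library in turn gave 8 to 9 calls in the ABTAA arm (5 to 6 in IgG, 3 to 3 in ABTAA), 6 to 7 in the Veptp arm (3 to 4 in each genotype), and 8 to 11 in the Pdgfb arm (5 to 7 in PdgfbWT, 2 to 5 in PdgfbKO). Between PdgfbKO and PdgfbWT it gave 2 to 4 in UUO kidneys, 0 to 0 in CL kidneys, and 0 to 1 between the responses, and 0 to 0 in all such comparisons of the other arms. Over single genes and the other settings, 37 of 1167 values newly passed and 27 no longer passed. Of the rest, 983 kept their sign and either stayed called or moved by at most 1 SE, 34 uncalled values changed sign within 1 SE, and 86 uncalled values moved by more than 1 SE, 47 of them with a change of sign. No called value changed sign. Low counts limit Cd46, C3ar1, and C5ar1.

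With the number in the library name as a replicate block, 16 Veptp libraries gave 12 calls (7 in VeptpWT, 5 in VeptpKO), against 10 without the block (5 and 5). Deviations of same-numbered Veptp libraries correlated at 0.058 to 0.43 (mean 0.23), against -0.42 to 0.36 (mean -0.03) between numbers, and since they were not all above 0.1 the numbers were not taken as pairs. The highest value, 0.43, was that of number 3, labelled VeptpKO in the CL and VeptpWT in the UUO kidney. Sex-linked transcripts were of the same class in both kidneys of each number apart from number 4. For number 4 the CL library held 15 Xist and 188 Y-linked counts, and the UUO library 2 and 245. Whether a number stands for a single mouse, and whether labels are then wrong, was not tested. In VeptpWT the block moved C4b from 0.45 (adjusted p = 0.50) to 1.12 (0.0011) and Cfb from 0.35 (0.28) to 0.60 (0.0017). In ABTAA mice the replicate block gave 4 calls against 3 in the same 6 libraries, and Cfb was the call that differed. No paired analysis was made in the Pdgfb arm because the labels do not tie its CL and UUO libraries to mice.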
